A study of Mus musculus with 8 samples.

Results

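The genes described here are the MYC network and the genes of ribosome biogenesis and cell growth, a list of 50 symbols in 8 roles. They were taken from the deposited table by symbol, and 49 of the 50 were matched among 13681 symbols. Mycn was not analysed here. Where a gene had more than 1 RefSeq transcript entry, the entry with the highest mean over all 8 libraries was used. All 49 had an FPKM (fragments per kilobase of transcript, scaled to the fragments mapped) of at least 1 in at least 2 libraries, the minimum for testing, which 12921 genes met.

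The tumours were thymic lymphomas of C57BL/6 mice, labelled p53-/- in every group. Tumours of mice aged 10 weeks were injected with an adenovirus, and tissue was collected 48 h afterwards. The control group (2 libraries) is labelled ΔNfl/fl;p53-/- and received Ad-mCherry, a virus that carries a fluorescent protein alone. The other groups received Ad-CRE-mCherry, which also carries Cre recombinase, and are labelled ΔNp63Δ/Δ;p53-/- (3 libraries) and ΔNp73Δ/Δ;p53-/- (3 libraries). ΔNp63 and ΔNp73 are the forms of the p53 relatives p63 and p73 without the N-terminal transactivation domain. Control and deletion groups thus differ in virus as well as genotype, and these cannot be told apart. The control label does not say which gene is floxed, and a virus injected into a tumour need not reach every cell. The labels give no replicate numbers, so libraries are numbered here within each group, and nothing states that they come from separate animals: p-values measure only the spread between these libraries. These are whole tissues, in which fewer cells of a type and less RNA per cell cannot be told apart.

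MYC is a transcription factor that binds DNA as a pair with MAX and drives genes of growth. MXD1, MXI1, MXD3, MXD4, MNT and MGA also pair with MAX and compete with MYC, mostly as repressors. Ribosome biogenesis, a main output of MYC, starts with transcription of ribosomal RNA by RNA polymerase I in the nucleolus and goes on through cleavage, chemical modification and assembly with ribosomal proteins. In the thymus, MYC supports the burst of division of immature T cells, and its overactivity is a known driver of T cell lymphoma.

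The labels were set beside the levels of the targeted genes. Trp63 had 4 entries. The highest was at 3.38 to 5.21 FPKM in controls and 6.38 to 13.8 in the ΔNp73-labelled libraries. In ΔNp63-labelled replicates 1, 2 and 3 it was at 6.57, 1.05 and 9.91, so only replicate 2 lay below the controls. That library was also the lowest for the next 2 entries, at 0.78 and 0.04 FPKM, but not for the last. Replicates 1 and 3 lay above both controls for the highest entry. Trp63 thus does not mark the ΔNp63 deletion across the group, and directions below rest on the labels. Trp53, for which every group is labelled null, had RNA in every library: its main entry was at 67.6 and 81.0 FPKM in controls, 16.1 to 46.3 in the ΔNp63-labelled and 10.96 to 75.9 in the ΔNp73-labelled libraries. The sources used here do not say which part of Trp53 is deleted, so this level does not check that label. Trp73 was not analysed here. The library least like the others was replicate 2 of the ΔNp63-labelled group, with a median correlation of 0.847 with the other libraries across tested genes, against 0.915 to 0.956 for the other 7. Results are given with and without it. Sequencing depth is unknown here.

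The member genes set replicate 2 of the ΔNp63-labelled group apart from the other 7 libraries more than they set the groups apart. In that library 42 of 49 were at their highest level, against 31.5% of all genes tested, and 20 of 49 were over 2-fold above the highest of the other libraries, against 3.95% of all genes. The median member was at 1.99 times the control mean there, while the median over all genes tested was 0.966 times. No other library held the highest value of more than 2 members. This is 1 library, so the difference has no replicate check and is given as a description.

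**Figure D1:**
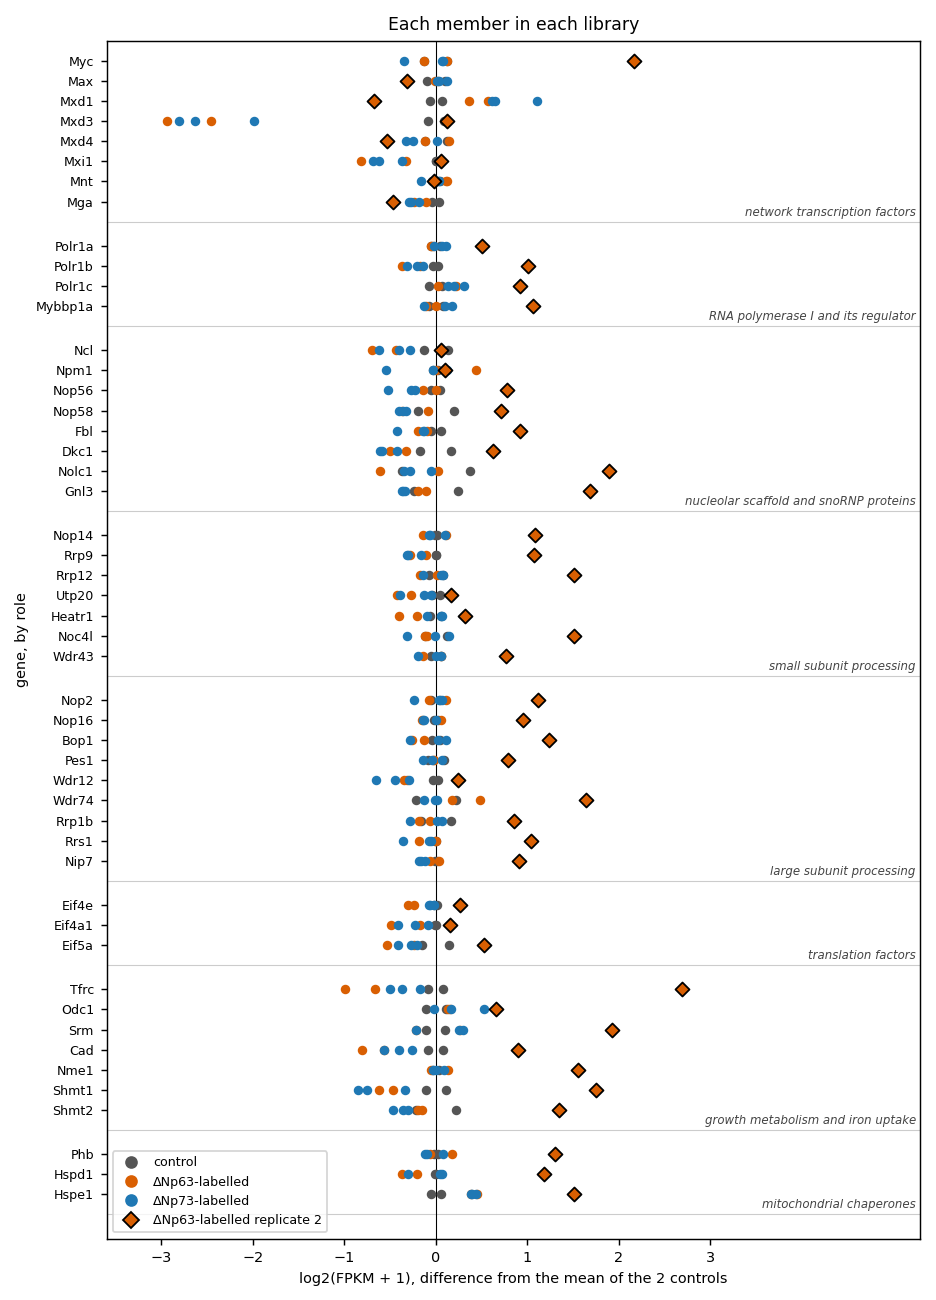
Level of each of the 49 members in each of the 8 libraries, as the difference of log2(FPKM + 1) from the mean of the 2 controls (horizontal axis), with genes grouped by role (vertical axis). Points are libraries and the diamond is replicate 2 of the ΔNp63-labelled group, which lies at the right end for 42 of 49 genes, while Mxd3 lies far to the left in 5 of the 6 libraries with Cre.

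Myc was at 21.7 and 18.1 FPKM in both controls, 18.1, 92.3 and 21.6 in the ΔNp63-labelled libraries and 15.4, 20.8 and 20.9 in the ΔNp73-labelled libraries. Replicate 2 held 4.26 times the highest other value, and the other 7 libraries lay at 15.4 to 21.7 FPKM, with all groups overlapping. The log2 fold change (log2FC) against control was 0.72 (standard error, SE, 0.62, limma adjusted p = 0.664) in the ΔNp63-labelled group and -0.0033 (SE 0.18, adjusted p = 0.99) without replicate 2. In the ΔNp73-labelled group it was -0.07 (SE 0.62, adjusted p = 0.959). A second Myc entry was at 41.2 FPKM in replicate 2 and at 5.90 to 9.82 elsewhere.

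Max, the shared partner, overlapped between all groups. It was at 52.8 and 60.4 FPKM in both controls, 57.4, 45.1 and 56.3 in the ΔNp63-labelled and 61.7, 56.9 and 58 in the ΔNp73-labelled libraries, and its lowest value was in replicate 2, where Myc was highest. Its second entry was at 35.3 FPKM in replicate 2 and at 18.6 to 28.3 elsewhere, the opposite order.

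The competitors of MYC took several courses. Mxd3, which is known to be made in dividing cells, had 21.2 and 18.7 FPKM in the 2 controls against 2.36, 1.98 and 4.29 in the ΔNp73-labelled group, and the control mean was 6.93 times the ΔNp73 mean. In the ΔNp63-labelled libraries it was at 2.82, 21.9 and 1.73: replicate 2 sat with the controls and the other 2 with the ΔNp73-labelled group. The log2FC was -2.48 (SE 0.82, adjusted p = 0.161) for ΔNp73 and -1.75 (SE 0.82, adjusted p = 0.418) for ΔNp63 with all libraries in the model. Without replicate 2 Mxd3 fell in both groups, by 2.48 (SE 0.26, adjusted p = 0.00134) and 2.70 (SE 0.29, adjusted p = 0.00216) on the log2 scale.

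Proliferation markers moved with Mxd3 in their sum, though not gene by gene in replicate 2. The summed level of 19 measured markers such as Mki67 and Top2a was 1631 to 1698 FPKM in controls, 1523 in replicate 2, 461.8 and 476 in the other ΔNp63-labelled libraries and 459.6 to 738 in the ΔNp73-labelled libraries. In replicate 2, 11 of the 19 were at their highest of all libraries, against 31.5% of all genes tested. Other markers were below both controls there, such as Mki67 at 43.8 FPKM against 104 and 88.3. In every other library with Cre, 0 of the 19 lay above the control mean. None of the 19 was listed at 0 in any library. Their part in the level of Mxd3 was not tested.

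Mxd1, which rises as many blood cells stop dividing and mature, had 9.62 and 10.6 FPKM in the 2 controls against 16, 22.9 and 16.4 in the ΔNp73-labelled group, with no overlap (log2FC 0.79, SE 0.36, adjusted p = 0.26). The ΔNp63-labelled libraries were at 13.3, 5.97 and 15.4, with replicate 2 the lowest of all 8 libraries, and all 3 lay below every ΔNp73-labelled library (ΔNp73 against ΔNp63 0.70, SE 0.32, adjusted p = 0.475). Without replicate 2 Mxd1 rose in the ΔNp73-labelled group (adjusted p = 0.0128), while the ΔNp63-labelled group was at 0.47 (SE 0.18, adjusted p = 0.111). Marker genes of macrophages and monocytes, 16 of 18 listed symbols, also had a higher sum in the libraries with Cre other than replicate 2. It was 486 to 542 FPKM in controls, 532 in replicate 2, 1365 and 1445 in the other ΔNp63-labelled libraries and 1329.7 to 1824 in the ΔNp73-labelled libraries. None of these markers was at 0. Gene by gene, 13 of the 16 lay above the control mean in replicate 2, beside 6145 of 12921 genes tested. Their median difference there was 0.23 on the log2(FPKM + 1) scale. All 16 lay above it in each other library with Cre, at medians of 1.41 to 1.82. The 10 neutrophil markers measured summed to 175 to 678 FPKM in controls, 56.5 in replicate 2, 772 and 775 in the other ΔNp63-labelled libraries and 945 to 1583 in the ΔNp73-labelled libraries, with Elane at 0 in replicate 2. The most abundant of these 10 was S100a8, at 96.8 and 458 FPKM in the 2 controls. Counted by gene, 6 and 9 of the 10 lay above the control mean in ΔNp63-labelled replicates 1 and 3, and 1 in replicate 2. In the ΔNp73-labelled libraries 6, 10 and 10 did. The part of macrophage, monocyte and neutrophil markers in the level of Mxd1 was not tested.

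Mxi1 was at 4.89 and 4.87 FPKM in both controls, 2.35, 5.12 and 3.7 in the ΔNp63-labelled and 2.66, 2.82 and 3.56 in the ΔNp73-labelled libraries. All 3 ΔNp73-labelled values lay below both controls (log2FC -0.56, SE 0.26, adjusted p = 0.259), and the gene fell there without replicate 2 (adjusted p = 0.0451). Mga, which also has a T-box domain, was at 11.1 and 11.7 FPKM (control), 9.51, 7.94 and 10.5 (ΔNp63) and 9.1, 9.32 and 9.92 (ΔNp73). Both deletion groups lay wholly below the controls, yet by a small margin (log2FC -0.27 and -0.25, adjusted p = 0.482 and 0.373).

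Mxd4 and Mnt did not separate the groups. Mxd4 was at 35.7 and 42.3 FPKM in both controls, 35.8, 26.6 and 43.2 in the ΔNp63-labelled and 30.8, 32.6 and 39.4 in the ΔNp73-labelled libraries. Mnt, a widely expressed repressor of the network, was at 9.39 and 8.75 FPKM (control), 9.95, 8.95 and 9.85 (ΔNp63) and 7.99, 9.28 and 9.25 (ΔNp73), and stayed within a range of 1.25-fold over 7 libraries other than replicate 2. Replicate 2 was thus the highest library for Myc, Mxd3 and Mxi1, though at only 1.03 and 1.05 times the next library for Mxd3 and Mxi1. A second Mxi1 entry was at 2.13 FPKM there, below the 2.77 and 2.46 of the controls. By the entries used, replicate 2 was the lowest library for Max, Mxd1, Mxd4 and Mga. These 4 were the only members lowest there, or 8.16% of 49, against 32.8% of all genes tested.

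**Figure D2:**
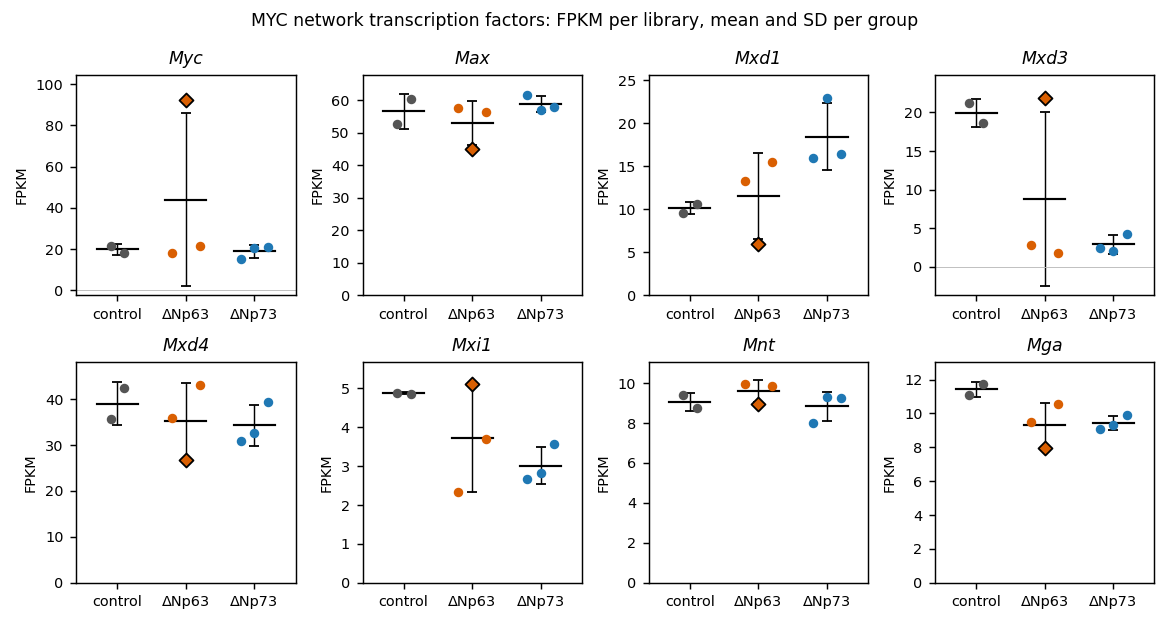
FPKM of the 8 network transcription factors (vertical axes, linear) in each library by group (horizontal axes), with the group mean and SD as bars and replicate 2 of the ΔNp63-labelled group as a diamond. Myc is level at 15.4 to 21.7 FPKM outside that library, while Mxd3 reads 21.2 and 18.7 in controls against 2.36, 1.98 and 4.29 with ΔNp73 deleted by label.

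MYC and MAX bind the E-box, of which CACGTG is the preferred form, so the starts of the member genes were searched for it. A window from 250 bases before to 50 after each RefSeq gene start (build GRCm38.p6) was on hand for 42 members, and 14 of them (33.3%) held CACGTG, which reads the same on both strands and is 1 of the forms of CANNTG. The share was 11.7% of tested genes with a window and 7.15% of all windows of this length. The windows of Myc, Npm1, Fbl, Rrp12, Bop1, Rrs1 and Srm were not used here. The 150 bases before the start of 3 genes are shown, 2 growth genes that were high in replicate 2 and 1 network gene that was not, with the E-box in capitals, each 5′ to 3′ on the gene's strand.
Nop2 (chr6:125131733-125131882, plus strand): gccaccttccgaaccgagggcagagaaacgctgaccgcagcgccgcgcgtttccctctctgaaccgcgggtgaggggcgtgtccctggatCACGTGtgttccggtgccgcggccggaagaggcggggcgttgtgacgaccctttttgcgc
Nme1 (chr11:93968273-93968422, minus strand): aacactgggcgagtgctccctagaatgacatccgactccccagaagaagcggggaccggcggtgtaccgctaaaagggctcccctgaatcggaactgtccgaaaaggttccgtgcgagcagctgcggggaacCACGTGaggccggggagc
Mnt (chr11:74830774-74830923, plus strand): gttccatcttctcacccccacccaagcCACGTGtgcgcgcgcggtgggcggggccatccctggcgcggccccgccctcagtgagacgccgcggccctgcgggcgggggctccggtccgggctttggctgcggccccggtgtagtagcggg
The E-box begins 60 bases before the start in Nop2, 18 before it in Nme1 and 123 before it in Mnt. In replicate 2 the 14 members with the motif were at a median of 1.47 times the highest other library (0.617 to 2.73), and the 28 without it at 1.81 times (0.261 to 6.36). A match is a description of the sequence, not of binding.

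Among the RNA polymerase I genes, the subunits varied little over 7 libraries and were higher in replicate 2. Polr1b, the second-largest subunit, was at 4.69 and 4.47 FPKM in both controls, 3.32, 10.3 and 3.94 in the ΔNp63-labelled and 3.47, 3.82 and 4.07 in the ΔNp73-labelled libraries, and Polr1a, the largest subunit, at 7.05 and 6.51 FPKM (control), 6.61, 10.1 and 6.49 (ΔNp63) and 6.68, 7.15 and 7.4 (ΔNp73). Replicate 2 was 2.19 and 1.36 times the next library for these genes. Polr1c, which RNA polymerase III shares, was at 15.3 and 13.8 FPKM (control), 17.1, 28.4 and 14.8 (ΔNp63) and 16, 18.2 and 16.8 (ΔNp73), and all ΔNp73-labelled values lay above both controls (log2FC 0.21, SE 0.26, adjusted p = 0.658). Mybbp1a, a nucleolar protein that regulates this step, was at 27.7 and 24.9 FPKM (control), 24.4, 55.9 and 26.4 (ΔNp63) and 24, 28.3 and 29.8 (ΔNp73).

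The nucleolar scaffold and the proteins that carry small nucleolar RNAs (snoRNAs) split in replicate 2 by the entries used. Ncl, which encodes nucleolin, was at 131 and 109.6 FPKM in both controls, 73.7, 125 and 88.7 in the ΔNp63-labelled and 77.6, 90.5 and 98.4 in the ΔNp73-labelled libraries, and replicate 2 lay between the controls. All 5 other libraries with Cre lay below both controls, and without replicate 2 Ncl fell for ΔNp63 (log2FC -0.56, SE 0.16, adjusted p = 0.0467) while for ΔNp73 the value was -0.44 (SE 0.15, adjusted p = 0.0595). Npm1, which encodes nucleophosmin, was at 355 and 343 FPKM (control), 349, 373 and 474 (ΔNp63) and 238, 379 and 343 (ΔNp73), with all groups overlapping. A second Npm1 entry was highest in replicate 2, at 382 FPKM against 159 to 309 elsewhere. Fbl, the snoRNA-guided methyltransferase fibrillarin, was at 106 and 98.5 FPKM in both controls, 95.2, 194 and 89.4 in the ΔNp63-labelled and 76, 92.8 and 93.1 in the ΔNp73-labelled libraries. Its partners Nop56 and Nop58 in the same particle were also highest in replicate 2, at 58.1 and 71.1 FPKM against 23 to 34.6 and 32.4 to 49.4 in the others.

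Dkc1, the pseudouridine synthase dyskerin, was at 34.3 and 26.9 FPKM in both controls, 21.1, 47.3 and 24 in the ΔNp63-labelled and 19.9, 19.6 and 22.4 in the ΔNp73-labelled libraries. It was below both controls in all ΔNp73-labelled libraries (log2FC -0.54, SE 0.32, adjusted p = 0.369) and fell there without replicate 2 (SE 0.13, adjusted p = 0.021). Gnl3, the nucleolar GTPase nucleostemin, was at 25.8 and 18.2 FPKM (control), 19.96, 71.9 and 18.9 (ΔNp63) and 16.6, 16.9 and 16.5 (ΔNp73), with every ΔNp73-labelled value below every other. Nolc1, a snoRNA particle chaperone, was at 9.94 and 5.5 FPKM (control), 7.55, 30.4 and 4.54 (ΔNp63) and 5.92, 5.63 and 7.15 (ΔNp73), and its 4 entries were each highest in replicate 2.

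Genes of small subunit processing varied little outside replicate 2. Noc4l was at 18 and 15.1 FPKM in both controls, 15.1, 49 and 15.3 in the ΔNp63-labelled and 13, 16.3 and 18.4 in the ΔNp73-labelled libraries. Wdr43, a subunit of the early processing complex, was at 18.2 and 16.8 FPKM (control), 15.7, 30.4 and 18.2 (ΔNp63) and 15.2, 18.3 and 17.6 (ΔNp73), and Rrp12, an export and maturation factor, at 3.79 and 3.32 FPKM (control), 3.04, 11.9 and 3.6 (ΔNp63) and 3.12, 3.82 and 3.73 (ΔNp73). Replicate 2 was 2.67, 1.66 and 3.13 times the highest other library for these 3 genes. The step was smaller for the large scaffold proteins Utp20 at 5.6 and 5.22 FPKM (control), 3.79, 6.19 and 4.29 (ΔNp63) and 3.89, 4.86 and 5.2 (ΔNp73) and Heatr1 at 11.1 and 10.1 FPKM (control), 7.77, 13.5 and 9.08 (ΔNp63) and 9.85, 11.1 and 11.2 (ΔNp73). Rrp9, a protein of the U3 snoRNA particle, was at 11.3 and 11.3 FPKM (control), 10.4, 24.8 and 9.07 (ΔNp63) and 8.89, 8.94 and 9.99 (ΔNp73), with each ΔNp73-labelled value below both controls (log2FC -0.26, SE 0.37, adjusted p = 0.711).

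Large subunit processing included the 3 proteins of the PeBoW complex, Pes1, Bop1 and Wdr12, which were unequal in replicate 2 by the entries used. Pes1 was at 46.1 and 40.7 FPKM in both controls, 42.5, 75.4 and 42.8 in the ΔNp63-labelled and 39.2, 45.5 and 42.1 in the ΔNp73-labelled libraries. Bop1 was at 11.7 and 12.5 FPKM (control), 10.9, 29.8 and 9.94 (ΔNp63) and 9.79, 12.3 and 13.2 (ΔNp73) and Wdr12 at 9.78 and 10.2 FPKM (control), 7.82, 12 and 7.65 (ΔNp63) and 5.98, 7.06 and 7.96 (ΔNp73). Relative to the control mean, replicate 2 was at 2.46 times for Bop1, 1.74 for Pes1 and 1.21 for Wdr12. Less abundant Wdr12 entries had a larger step, at 5.7 and 2 FPKM in replicate 2 against at most 2.23 and 0.73 elsewhere. Wdr12 was below both controls in all 5 other libraries with Cre, and fell in the ΔNp73-labelled group without replicate 2 (log2FC -0.46, SE 0.12, adjusted p = 0.0269; adjusted p = 0.265 with it).

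Wdr74, an assembly factor of the large subunit, had the largest difference of its role between the deletion groups. It was at 10.1 and 7.19 FPKM in both controls, 12.3, 28.7 and 9.76 in the ΔNp63-labelled and 7.71, 8.5 and 8.64 in the ΔNp73-labelled libraries, so that the deletion groups did not overlap (ΔNp73 against ΔNp63 -0.80, SE 0.36, adjusted p = 0.474). Rrp1b was at 4.37 and 3.28 FPKM (control), 3.21, 7.68 and 3.6 (ΔNp63) and 2.94, 4.04 and 3.84 (ΔNp73). The other members of this role, the RNA methyltransferase gene Nop2 and Nop16, Rrs1 and Nip7, were at 7.99 to 10.5, 9.24 to 10.8, 8.17 to 10.8 and 7.08 to 8.45 FPKM over 7 libraries, and at 22, 21, 23.2 and 16.3 in replicate 2. Of small subunit genes, Nop14 was at 28.9 FPKM there and at 11.8 to 14.2 elsewhere.

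Translation factors, among the most abundant members, were at a median of 1.2 times the control mean in replicate 2. Eif4a1, the helicase that unwinds messenger RNA, was at 353 and 355 FPKM in both controls, 252, 394 and 313 in the ΔNp63-labelled and 266, 302 and 333 in the ΔNp73-labelled libraries. Eif5a, which eases peptide bond formation, was at 430.1 and 351 FPKM (control), 329, 561 and 269 (ΔNp63) and 291, 322 and 337 (ΔNp73), and Eif4e, which binds the messenger RNA cap, at 41.4 and 40.5 FPKM (control), 33, 49.2 and 34.7 (ΔNp63) and 38.8, 39 and 40.5 (ΔNp73). Each ΔNp73-labelled library lay below both controls for Eif4a1 and Eif5a, and no difference passed the test (adjusted p = 0.534 and 0.592).

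Metabolic genes held the widest gap of replicate 2 from the rest. Tfrc, the transferrin receptor that takes up iron, was at 19.3 and 17.1 FPKM in both controls, 8.61, 122 and 11.1 in the ΔNp63-labelled and 12.6, 13.9 and 16 in the ΔNp73-labelled libraries. Replicate 2 was 6.36 times the next library, while every other library with Cre was below both controls. The log2FC for ΔNp63 turned from 0.34 (SE 0.98, adjusted p = 0.917) to -0.83 (SE 0.16, adjusted p = 0.0126) without replicate 2, so Tfrc fell in the other 2 libraries. Tfrc was at -0.35 in the ΔNp73-labelled group (SE 0.98, adjusted p = 0.858).

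Cad, which carries out the first steps of pyrimidine synthesis, was at 7.63 and 6.72 FPKM in both controls, 3.67, 14.3 and 4.49 in the ΔNp63-labelled and 4.52, 5.17 and 5.83 in the ΔNp73-labelled libraries. It had the same layout as Tfrc, and fell for ΔNp63 without replicate 2 (log2FC -0.69, SE 0.15, adjusted p = 0.0184; -0.16 and adjusted p = 0.919 with it). Shmt1, the cytosolic serine hydroxymethyltransferase of one-carbon metabolism, was at 11.8 and 10.03 FPKM (control), 6.75, 39 and 7.57 (ΔNp63) and 6.03, 5.61 and 8.41 (ΔNp73). It fell in the ΔNp73-labelled group without replicate 2 (log2FC -0.65, SE 0.17, adjusted p = 0.0264; adjusted p = 0.589 with it). Its mitochondrial counterpart Shmt2 was at 66 FPKM in replicate 2 and at 18 to 29.5 elsewhere.

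Polyamine genes did not set replicate 2 apart alike, and for Odc1 it was only 1.1 times the next library, a ΔNp73-labelled library. Odc1, the rate-limiting enzyme of polyamine synthesis, was at 21.6 and 18.4 FPKM in both controls, 21.9, 32 and 22.3 in the ΔNp63-labelled and 22.4, 29.2 and 19.6 in the ΔNp73-labelled libraries, so the ΔNp63-labelled libraries lay just above both controls (log2FC 0.31, SE 0.23, adjusted p = 0.595). Srm, spermidine synthase, was at 11.2 and 9.6 FPKM (control), 12.7, 42.3 and 8.81 (ΔNp63) and 8.83, 13 and 12.6 (ΔNp73), and replicate 2 was 3.26 times the next library. Nme1, a nucleoside diphosphate kinase, was at 26 and 24.8 FPKM (control), 28, 76.4 and 24.4 (ΔNp63) and 24.8, 25.4 and 27 (ΔNp73).

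Hspe1, the co-chaperonin of the mitochondrial matrix, was above both controls in all 6 libraries with Cre. It was at 60.2 and 65.1 FPKM in both controls, 81.8, 180.3 and 86.2 in the ΔNp63-labelled and 82, 82.8 and 85.4 in the ΔNp73-labelled libraries. The log2FC was 0.78 (SE 0.32, adjusted p = 0.372) and 0.41 (SE 0.32, adjusted p = 0.489), and without replicate 2 Hspe1 rose in both groups (0.42, adjusted p = 0.0243, and 0.41, adjusted p = 0.0141). Its partner Hspd1 did not share this pattern, at 81.7 and 80.9 FPKM (control), 62.6, 186 and 70.5 (ΔNp63) and 65.8, 85.2 and 84.1 (ΔNp73) (log2FC -0.29 and -0.06 without replicate 2, adjusted p = 0.205 and 0.75). Phb, which encodes prohibitin, was at 24.3 and 23.5 FPKM (control), 27.1, 60.5 and 22.8 (ΔNp63) and 25.3, 21.9 and 22.3 (ΔNp73). Both chaperonin genes have named pseudogenes in the mouse annotation, and how reads were shared between copies is not given in the sources used here.

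With all 8 libraries in 1 model, 0 of 49 members passed an adjusted p of 0.05 in any comparison by limma. The background was also low, at 0.0929% of 12921 genes for ΔNp63 against control, 0.0542% for ΔNp73 against control and 0.0542% for ΔNp73 against ΔNp63. At an unadjusted p under 0.05 the members numbered 1 (Hspe1), 1 (Mxd3) and 0, or 2.04%, 2.04% and 0% of 49, against 13% (1678 genes), 21.3% (2747) and 10.5% (1358) of all genes tested. The median log2FC over the members was 0.22, -0.09 and -0.36, beside -0.02, -0.07 and -0.02 over all genes tested.

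Without replicate 2, 5 members passed in the ΔNp63-labelled group. Mxd3, Tfrc, Cad and Ncl fell and Hspe1 rose. That is 10.2% of 49, against 22.5% of all 12782 genes tested (11.7% higher and 10.8% lower). In the ΔNp73-labelled group 7 passed, with falls of Mxd3, Shmt1, Mxi1, Dkc1 and Wdr12 and rises of Mxd1 and Hspe1. That is 14.3%, against 33% of all genes (16.8% higher and 16.1% lower). This comparison keeps all its libraries and its log2FC are the same in both fits, which differ in the shared estimate of the spread and in the genes tested. The 2 comparisons share the controls. Both shares lay below the background. The median over the members was -0.11 for ΔNp63, -0.09 for ΔNp73 and 0.01 for ΔNp73 against ΔNp63, where 0 of 49 passed by limma (3 at an unadjusted p under 0.05, Heatr1, Eif4e and Tfrc, against 15.6% of all genes) and 0.149% of all genes did. Weighting each library by its spread instead gave 11 and 15 members against control (34.7% and 50.8% of all genes), and a model of ΔNp73 and control alone gave 7 (30.9%).

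**Figure D3:**
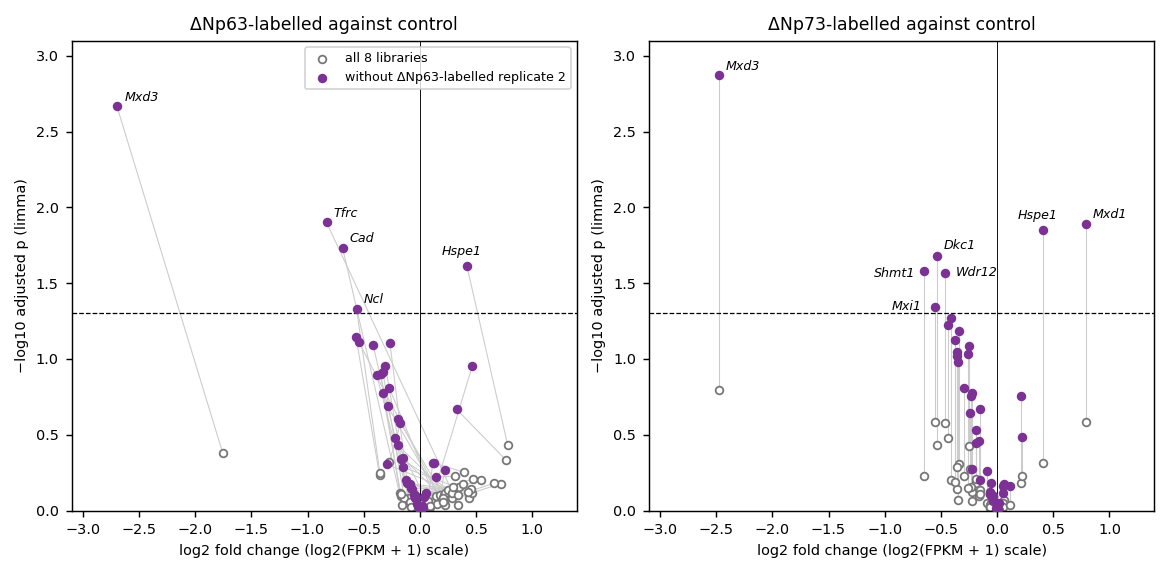
Log2 fold change against control (horizontal axis) and −log10 of the limma adjusted p (vertical axis) of the 49 members for each deletion group, with all 8 libraries (open circles) and without replicate 2 of the ΔNp63-labelled group (filled circles), joined by lines for each gene. The dashed line is the threshold of 0.05, which 0 open circles and 5 and 7 filled circles pass.

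Counted by libraries that do not overlap, 21 members lay below control in the ΔNp73-labelled group and 3 above (Mxd1, Polr1c and Hspe1). These are 42.9% and 6.12% of 49, beside 35.7% lower and 27.7% higher over all genes tested. In the ΔNp63-labelled group Mga alone lay below and Odc1 and Hspe1 above (17.7% and 12.6% of all genes). Between the deletion groups Mxd1 alone was higher in the ΔNp73-labelled group (10.3% of all genes), and Nop56, Gnl3, Wdr74, Nip7 and Shmt2 were lower (8.58%).

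Outside replicate 2 the members varied little. The ratio of the highest to the lowest of the other 7 libraries had a median of 1.41 over the members, with 42 of 49 under 2-fold, against a median of 1.73 and 62.2% of genes under 2-fold over all genes tested. The extremes were 1.14-fold for Polr1a and 12.3-fold for Mxd3. The members were not matched to other genes on level.

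Most lists of other pathway genes, made beside the member list, were also higher in replicate 2, with smaller medians than the members as a whole. In replicate 2 the median difference from the control mean, on the log2(FPKM + 1) scale, was 0.91 over the members, 0.47 over 17 genes of the RNA polymerase I machinery, 0.52 over 41 genes of the small subunit processome, 0.48 over 44 large subunit assembly genes and 0.67 over 22 genes of snoRNA particle assembly and the RNA exosome. It was 0.59 for 22 genes of nucleotide, polyamine and one-carbon metabolism, 0.34 for 20 translation initiation genes and -0.01 for 18 partners and stability factors of MYC. Of the 124 ribosome biogenesis genes among them, 111 lay above the control mean in replicate 2, against 36 and 29 in the other ΔNp63-labelled libraries and 14, 20 and 28 in the ΔNp73-labelled libraries. Of all 12921 genes tested, 6145 lay above it in replicate 2. The counts were 6055 and 6156 in the other ΔNp63-labelled libraries and 5622, 5640 and 5886 in the ΔNp73-labelled libraries. Over all genes tested the medians lay between -0.09 and 0.00 in every library.

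**Figure D4:**
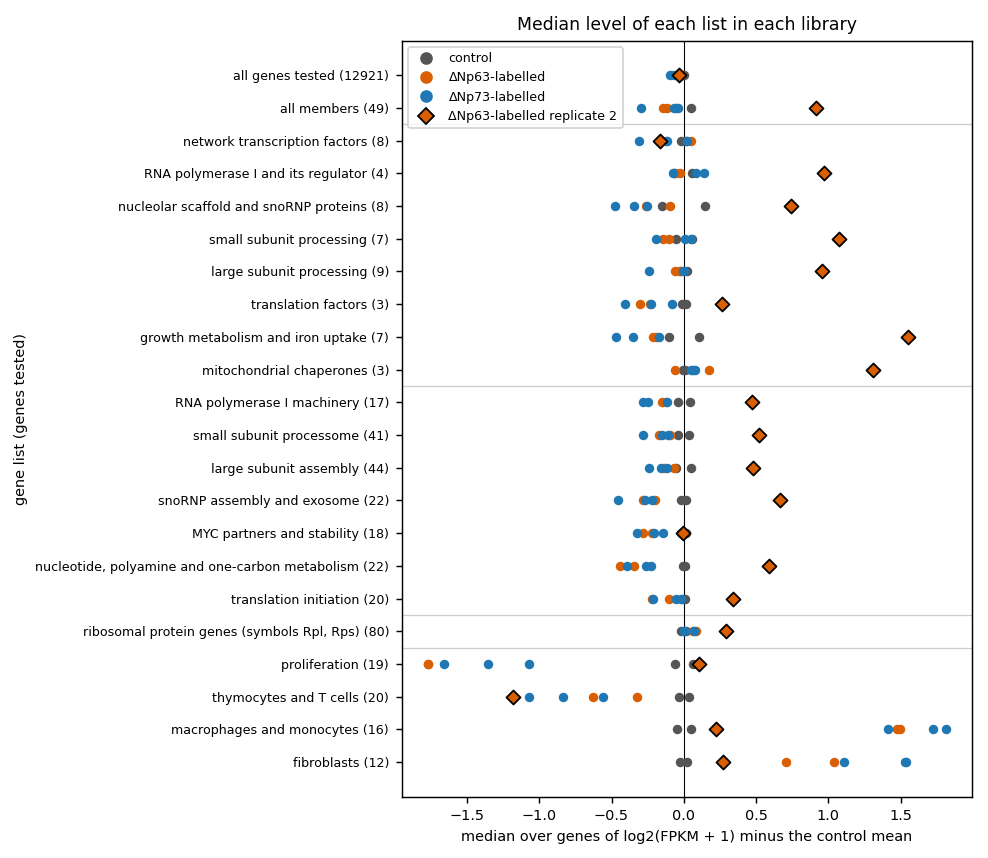
Median over the genes of each list of log2(FPKM + 1) minus the control mean (horizontal axis) in each library (points; the diamond is replicate 2 of the ΔNp63-labelled group), with the number of genes tested in brackets. Replicate 2 stands to the right for the 4 pathway lists of ribosome biogenesis outside the members, with medians of 0.47 to 0.67, and lies near the controls for proliferation, at 0.10, where the other libraries with Cre are at -1.77 to -1.07.

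By the test, none of the 183 pathway genes passed with all libraries in either comparison with control by limma. At an unadjusted p under 0.05 there were 10 and 14 of 183, against 13% and 21.3% of all genes tested. Without replicate 2, 3 rose and 25 fell in the ΔNp63-labelled group, of which 1 and 11 were among the 22 metabolic genes, and 4 rose and 32 fell in the ΔNp73-labelled group. The falls were 13.7% and 17.5% of the 183 genes, near the 10.8% and 16.1% of all genes tested, and all calls together were 15.3% and 19.7%, below the 22.5% and 33% of all genes. The lists differed in their falls for ΔNp63 and ΔNp73. Falls were 50% and 27.3% of the 22 metabolic genes and 18.2% and 36.4% of the 22 snoRNA particle and exosome genes. In the small subunit processome they were 2.44% and 9.76% of 41 genes. The 124 ribosome biogenesis genes gave 0 rises and 9 falls (7.26%) for ΔNp63 and 1 rise and 21 falls (16.9%) for ΔNp73, against 10.8% and 16.1% of all genes lower. The 2 most abundant genes of each list included Nhp2l1, a shared protein of snoRNA and spliceosome particles, at 129 and 125 FPKM (control), 90.5, 219 and 107 (ΔNp63) and 84.9, 86.1 and 90.5 (ΔNp73), and Taf1d, a subunit of the polymerase I selectivity factor, at 61.9 and 67 FPKM (control), 56.5, 141 and 64.2 (ΔNp63) and 49.9, 47.5 and 60.1 (ΔNp73). Sat1, which breaks polyamines down, had the opposite order, at 99.1 and 108 FPKM (control), 157, 73.8 and 176 (ΔNp63) and 202, 234 and 198 (ΔNp73).

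Cell type markers differed between the same libraries. The 20 thymocyte and T cell markers summed to 7186 to 7928 FPKM in controls, 3361 in replicate 2, 4478 and 5850.1 in the other ΔNp63-labelled libraries and 3323 to 5232 in the ΔNp73-labelled libraries, with none at 0. The 12 fibroblast markers summed to 103 to 108 FPKM in controls, 128 in replicate 2, 218 and 249 in the other ΔNp63-labelled libraries and 299.7 to 382 in the ΔNp73-labelled libraries. They split in replicate 2, where 6 of the 12 were the lowest of all 8 libraries, against 32.8% of all genes tested. Fbln1 was at 21.9 FPKM there, against 2.43 and 2.44 in controls. Of the 20 T cell markers, 11 were lowest in replicate 2, against the same 32.8% of all genes tested. The thymocyte genes Rag1, Rag2 and Ptcra were at 51.9, 1.99 and 0.40 FPKM there, against 308 to 965, 20.4 to 72.3 and 2.43 to 13.4 in the other libraries, while Dntt, also a thymocyte gene, was at 351 there against 72.1 to 308. T cell receptor complex genes were present in all libraries, with Cd3e at 235 to 430.1 FPKM. The 10 B cell markers summed to 37.5 and 41.2 FPKM in controls, 8.71 in replicate 2, 53.9 and 79.98 in the other ΔNp63-labelled libraries and 50.8 to 56.7 in the ΔNp73-labelled libraries. The part of cell composition in the levels of the members was not tested.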

How the data were processed

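RNA of thymic lymphomas was sequenced as 8 libraries with a TruSeq RNA kit, per the labels' protocols. The authors deposited 1 table of FPKM per RefSeq transcript, quantile-normalised between libraries, as its name and values show. TopHat2 2.0, Cufflinks 2.0 and the mouse build mm9 are named in the submitters' processing notes, with no role or order. The table holds 16589 entries under 13681 symbols. This normalisation makes the distributions equal except among the lowest values, and a shift of all RNA in a cell would not show. Sorted values differed by over 1% between libraries for 2321 of the 16589 entries, all among the lowest 2393. The table holds no counts, so no counting interval is given.

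Per symbol, the entry with the highest mean was kept, and 35 entries whose symbols had become dates were renamed by RefSeq identifier. The model was fitted to log2(FPKM + 1) by limma 3.58.1 under R 4.3.3 (3 groups together, 5 residual degrees of freedom, mean-variance trend, two-sided), with Benjamini-Hochberg adjustment over all genes tested; the pseudocount makes fold changes of low genes smaller. The script was tested on simulated data. Members and lists were chosen with earlier results of these data known. The genes named with values are all 8 measured network factors and Tfrc; per other role the 2 most abundant members and, per comparison, those with the largest and most negative log2FC; members past the threshold; and, among members whose groups do not overlap for ΔNp73 against control, the 3 with the smallest unadjusted p. Beside that rule Nolc1 is given in full, and Nop56, Nop58, Nop14, Nop2, Nop16, Rrs1, Nip7 and Shmt2 by range. Promoter windows are from RefSeq, build GRCm38.p6, matched by symbol for 42 of 49 members. List symbols without a match (Noc2l, Cd163 and Ly6g) were not analysed here, and Adgre1 and Cdc2a are in the lists under their other symbols, Emr1 and Cdk1. Each comparison was repeated under 16 alternatives.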

Additional observations from a re-analysis of the deposited data

How the results depend on the processing

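Replicate 2 of the ΔNp63-labelled group decides the count of calls. Leaving out each library in turn gave 3 to 2882 genes for ΔNp63 against control (12 with all libraries), 0 to 4212 for ΔNp73 against control (7) and 6 to 19 for ΔNp73 against ΔNp63 (7), and 0 to 5, 0 to 7 and 0 to 0 of 49 members. The highest values are those without replicate 2, and the lowest for the control comparisons those without a control (limma, 1066 and 1254 genes at an unadjusted p under 0.05 where 0 passed for ΔNp73). The median log2FC over members ranged from -0.11 to 0.40, -0.18 to -0.06 and -0.55 to 0.01. Array weights gave 4480, 6569 and 344 genes and 11 and 15 members in the control comparisons, with a median of 0.02 for ΔNp73 against ΔNp63. Fitting only the groups compared gave 5 and 3890 genes against control, and 7 members for ΔNp73. For ΔNp73 against control, pseudocounts of 0.1 and 5 gave 18 and 15 genes and median-of-ratios rescaling 3. Tfrc in the ΔNp63-labelled group (log2FC 0.34) ranged from -0.83 without replicate 2 to 1.01 without replicate 1, and was -0.81 with array weights; both negative values passed the threshold. Of 1920 log2FC of 40 named members under the 16 alternatives, 151 changed sign while past the threshold in neither fit, and these were not counted as reversals. No paired analysis was possible because the labels give no replicate numbers. With 2 or 3 libraries a group, a p that misses the threshold does not show that levels are equal.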

Other observations

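Ribosomal protein genes, the structural product that the biogenesis genes handle, differed less in replicate 2 of the ΔNp63-labelled group than the biogenesis genes did. Over 80 genes with Rpl and Rps symbols, a list made after the values were seen, the median difference from the control mean on the log2(FPKM + 1) scale was 0.29 in that library and 0.00 to 0.08 in the other libraries with Cre. The corresponding median over 124 biogenesis genes outside the member list was 0.53 in that library.

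Of 20 further transcript entries of 10 members, 18 had a mean FPKM of at least 1, and 17 of these were highest in replicate 2. The exception was the second entry of Mxi1. Entries of a gene share exons and reads, so they are not independent measurements. Eif5a had 8 entries in all and Nolc1 4, and the share over further entries of all genes is not given here. The entries of Npm1 differed in this: the most abundant was at 373 FPKM there and at 238 to 474 elsewhere, and the next at 382 against 159 to 309.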
